A study of Homo sapiens with 24 samples.

Results

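The 9 genes described here encode kinases grouped as phosphorylating SR proteins, and they are not a complete set. They comprise the CDC2-like kinases CLK1, CLK2, CLK3 and CLK4 and the SR protein kinases SRPK1 and SRPK2. The others are the dual-specificity kinases DYRK1A and DYRK1B, and PRPF4B, the PRP4 kinase. The genes were taken by symbol from a table of 60366 genes, and all 9 were found there. RNA-seq of polyadenylated RNA had been made from BXPC3, MIAPACA2 and PSN1, 3 human pancreatic adenocarcinoma cell lines that the series describes as lacking MTAP, with the genotype of each library labelled WT. The treated cells received AM-9747, a tool compound described as an MTA-cooperative inhibitor of the arginine methyltransferase PRMT5, for 6 days at 100 nM (BXPC3 and PSN1) or 150 nM (MIAPACA2), and the vehicle cells received DMSO. Each of the 6 groups had 4 libraries, 24 in all. Each line is a single model from a single tumour, the dose was not the same in MIAPACA2 as in the other lines, and nothing in the labels says whether the 4 libraries of a group came from separate cultures, so the p-values measure the spread between these libraries.

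SR proteins are splicing factors whose tails of arginine and serine repeats are phosphorylated. SRPK1 and SRPK2 act largely in the cytoplasm and license SR proteins for import into the nucleus by transportin 3, whereas the CLKs are nuclear and release SR proteins from speckles. DYRK1A phosphorylates several splicing factors and, through LIN52, the DREAM complex that represses cell cycle genes, and PRPF4B phosphorylates PRPF6 and PRPF31 in the tri-snRNP. CLK1 is also known for transcripts that keep introns and stay in the nucleus until they are spliced. The series asked how gene expression changes on PRMT5 inhibition, and PRMT5 is itself best known for methylating Sm proteins of the splicing machinery.

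Promoter windows of 300 bases (250 before and 50 after a transcription start) were read from the RefSeq table for GRCh38.p14, in which 8 of the 9 genes were found and PRPF4B was not. One window is shown for each of CLK1, CLK4, CLK3 and DYRK1A, because their transcripts rose in AM-9747-treated BXPC3 cells (results follow), read 5′ to 3′ on the strand of the gene. The capitals mark CCATTTTG, which was searched for on both strands after these windows had been read and contains the CCAT core of known YY1 sites.
CLK1, chr2:200864609-200864908, minus strand: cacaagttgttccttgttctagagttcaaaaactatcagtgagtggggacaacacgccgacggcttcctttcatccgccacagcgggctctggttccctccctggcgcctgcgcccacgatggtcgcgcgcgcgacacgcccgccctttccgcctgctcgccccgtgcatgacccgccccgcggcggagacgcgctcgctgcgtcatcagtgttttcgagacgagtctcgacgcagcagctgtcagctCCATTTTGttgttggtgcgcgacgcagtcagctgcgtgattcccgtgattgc
CLK4, chr5:178627001-178627300, minus strand: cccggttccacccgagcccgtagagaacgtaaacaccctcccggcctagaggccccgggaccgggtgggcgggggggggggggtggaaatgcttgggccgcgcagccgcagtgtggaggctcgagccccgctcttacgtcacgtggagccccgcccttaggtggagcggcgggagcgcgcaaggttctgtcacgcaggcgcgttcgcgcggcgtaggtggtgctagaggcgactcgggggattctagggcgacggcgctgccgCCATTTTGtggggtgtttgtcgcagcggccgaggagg
CLK3, chr15:74615586-74615885, plus strand: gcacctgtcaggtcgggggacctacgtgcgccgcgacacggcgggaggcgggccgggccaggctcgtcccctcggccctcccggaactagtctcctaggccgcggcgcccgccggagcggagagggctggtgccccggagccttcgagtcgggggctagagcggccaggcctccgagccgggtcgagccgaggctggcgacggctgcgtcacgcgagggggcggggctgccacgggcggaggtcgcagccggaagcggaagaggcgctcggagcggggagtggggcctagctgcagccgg
DYRK1A, chr21:37366523-37366822, plus strand: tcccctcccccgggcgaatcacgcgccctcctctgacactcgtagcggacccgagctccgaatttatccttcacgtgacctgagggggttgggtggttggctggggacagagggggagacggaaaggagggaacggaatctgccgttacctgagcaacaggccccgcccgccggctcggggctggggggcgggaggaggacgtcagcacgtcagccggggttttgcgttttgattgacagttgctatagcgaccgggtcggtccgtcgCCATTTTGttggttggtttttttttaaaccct
The first C of the match lay at position -2 in CLK1, counted from 1 at the transcription start of the window shown. From the other start listed for CLK1 it lay at -99. The position was 14 in CLK4 and 19 in DYRK1A, whose other listed windows did not hold the match. Neither of the CLK3 windows held it, while DYRK1B, whose transcripts did not pass the test in any line, held it at position 11 (chr19:39834113-39834412, minus strand). Of the 18 windows listed for the 8 genes, 5 held it, and 1.59% of all 35116 windows do; since the motif was picked after these windows had been read, nothing is read from the difference. TATAAA was absent from the 4 windows shown, and GGGCGG, which 45.0% of all windows hold, was present in each of them. Other windows of DYRK1A, which are not shown, held TATAAA on the opposite strand. These matches describe letters and show no binding.

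Libraries held between 22412691 and 45561185 counts. Levels are given as CPM (counts scaled to a common library size), scaled over the 24 libraries by the trimmed mean of M values (TMM). Mitochondrially encoded transcripts made up 4.34 to 10.2% of the counts of BXPC3 libraries, 6.58 to 20.5% of those of MIAPACA2 and 7.98 to 43.8% of those of PSN1. An index of long against short transcripts, the median log2 CPM of 2241 genes with long principal transcripts (at least 5532.4 bases) minus that of 2242 with short ones (at most 1859 bases) after centring on each line, was lowest in BXPC3 vehicle replicate 4 (-0.86) and PSN1 vehicle replicate 3 (-0.52), which also had the fewest counts and genes detected (16646). Of the 6 epithelial markers checked, 6 reached 1 CPM in treated and in vehicle BXPC3 cells, 6 in treated and 5 in vehicle PSN1 cells, and 3 in either MIAPACA2 group. The 7 fibroblast markers summed to 44.8 to 55.5 CPM in treated and 26.5 to 33.0 CPM in vehicle BXPC3 libraries, 914 to 1571 CPM in treated and 1601 to 2849 CPM in vehicle MIAPACA2 libraries, and 154 to 186 CPM in treated and 42.6 to 64.7 CPM in vehicle PSN1 libraries; 7 reached 1 CPM in treated PSN1 cells and 4 in vehicle PSN1 cells. The summed epithelial markers came to 5343 to 7702 CPM in treated and 7627 to 12567 CPM in vehicle BXPC3 libraries. Haematopoietic markers summed to 5.64 to 21.9 CPM in treated and 32.1 to 38.9 CPM in vehicle BXPC3 libraries, and endothelial ones to 30.1 to 34.6 CPM in treated and 15.7 to 21.3 CPM in vehicle ones, so both lists separated the BXPC3 groups at low levels. In the other lines haematopoietic markers stayed at or below 46.4 CPM and endothelial ones at or below 61.2 CPM. The part of these markers in the kinase results was not tested. In these bulk libraries a change in the share of cells that express a gene and a change in its RNA per cell cannot be told apart.

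AM-9747 raised 4 of the 9 kinases in BXPC3, namely CLK1, CLK4, CLK3 and DYRK1A, and lowered none. CLK1 and CLK4, which are close paralogs, more than doubled, to 2.52-fold and 2.30-fold. Of all 17638 genes tested in BXPC3, 29.2% passed an adjusted p of 0.05 (edgeR quasi-likelihood test, Benjamini-Hochberg over all genes), 13.2% as higher and 16% as lower. No member passed in MIAPACA2, where 13.6% of 18090 genes did, or in PSN1, where 10.7% of 18287 did. At an unadjusted p below 0.05 there were 1 in MIAPACA2 (SRPK2) and 2 in PSN1 (SRPK1 and DYRK1B), beside 5258 and 5150 of all genes tested. DESeq2 called 0 in MIAPACA2 and 1 in PSN1, and limma voom 0 and 2. Both tools called more genes of all kinds in these lines than edgeR did. Without TMM scaling the median log2 fold change of all genes was 0.15 in MIAPACA2 and 0.37 in PSN1, and the higher share of all calls 75% and 69.1%, against 49.6% and 42.3% with it; the values here are relative to the scaled median. All 9 members passed the filter on low counts in each line. The median log2 fold change over the 9 kinases came to 0.58 in BXPC3, beside 2.99e-05 over all genes tested; MIAPACA2 gave 0.11 beside -0.0021, and PSN1 0.086 beside 0.035.

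**Figure D1:**
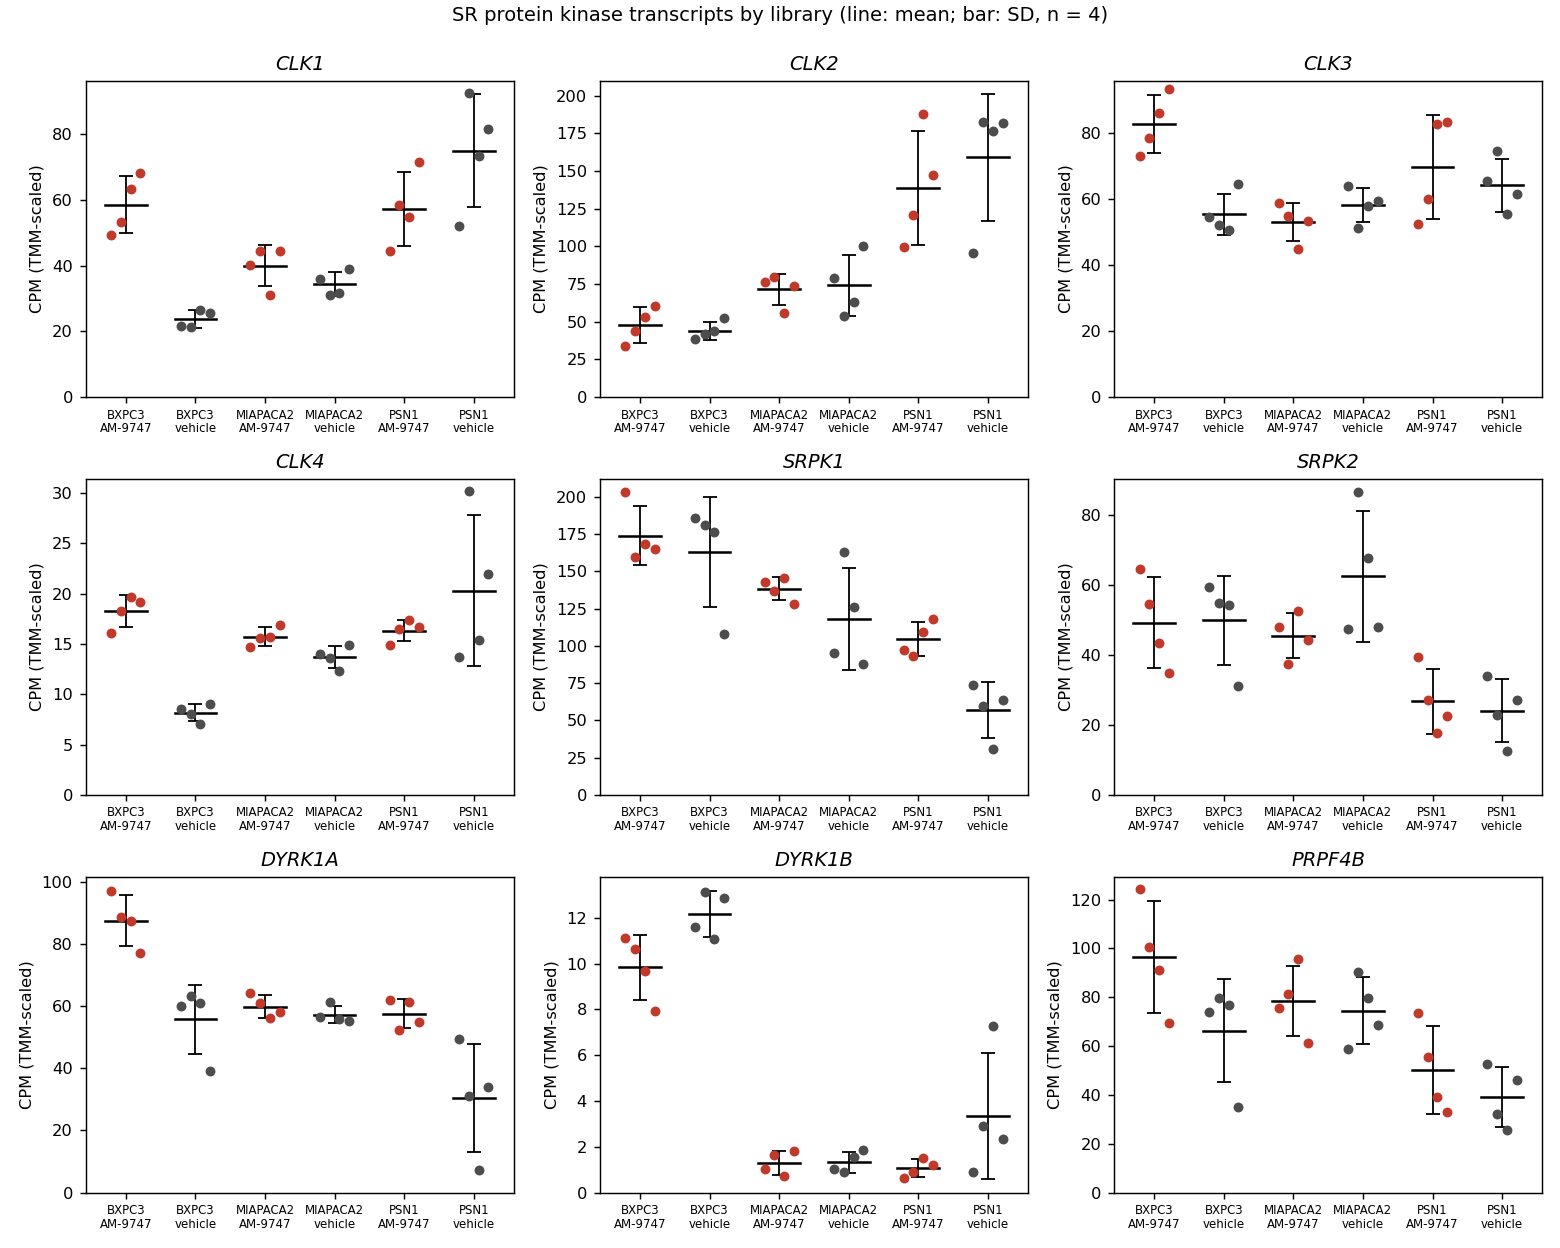
Level of each kinase in CPM (vertical axis, from 0) in the 4 libraries of each group (points), with AM-9747 in red and vehicle in grey; lines are means and bars SDs. In BXPC3 the treated and vehicle points of CLK1, CLK3, CLK4 and DYRK1A do not overlap, and the single low vehicle point of SRPK1 (108 CPM), DYRK1A (39.3 CPM) and PRPF4B (35.0 CPM) is the same library.

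CLK1 lies on chromosome 2 (200853009 to 200864744, minus strand; GENCODE 29, GRCh38) and has 15 annotated transcripts, of which 8 are of the retained intron class. In BXPC3 it stood at 49.4, 53.1, 63.3 and 68.0 CPM in the 4 AM-9747 libraries and at 21.5, 21.3, 26.4 and 25.7 CPM in the 4 vehicle libraries. Every treated library was above every vehicle library, as was so in BXPC3 for 4 of the 9 kinases and, in either direction, for 32% of all genes tested. The means were 58.5 ± 8.67 CPM with AM-9747 and 23.7 ± 2.69 CPM with vehicle (SD, n = 4 each), a log2 fold change of 1.34 ± 0.15 (SE; adjusted p = 0.000277). The same gene had 40.1, 44.5, 31.0 and 44.3 CPM in treated and 35.8, 31.1, 31.8 and 39.1 CPM in vehicle MIAPACA2 cells, groups that overlapped (log2 fold change 0.26 ± 0.16; adjusted p = 0.311). In PSN1 the direction was the other way without passing the test: 44.3, 58.5, 54.8 and 71.5 CPM with AM-9747 and 52.0, 92.6, 73.3 and 81.6 CPM with vehicle, a log2 fold change of -0.43 ± 0.25 (adjusted p = 0.291). CLK1 moved with the mitochondrial share in this line (Pearson r of log2 CPM 0.918 over its 8 libraries, both groups included), which was 7.98 to 31.1% in treated and 17.4 to 43.8% in vehicle libraries. With that share as covariate the log2 fold change was -0.038 ± 0.21 (adjusted p = 0.947), and without TMM scaling it was -0.073 ± 0.22 (adjusted p = 0.856).

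CLK4, on chromosome 5 (178602664 to 178630615, minus strand), is the paralog nearest to CLK1 and has 15 annotated transcripts, 7 with a retained intron. It had 16.1, 18.3, 19.7 and 19.2 CPM in AM-9747-treated BXPC3 cells and 8.53, 8.06, 7.03 and 9.07 CPM in vehicle cells. The groups lay far apart, at 18.3 ± 1.59 CPM with AM-9747 and 8.17 ± 0.866 CPM with vehicle (SD, n = 4 each), a log2 fold change of 1.20 ± 0.14 (adjusted p = 0.000330). In MIAPACA2 it had 14.7, 15.6, 15.7 and 16.9 CPM with AM-9747 and 14.0, 13.6, 12.3 and 14.9 CPM with vehicle, which overlapped (log2 fold change 0.24 ± 0.13; adjusted p = 0.264). PSN1 gave 14.9, 16.4, 17.3 and 16.6 CPM with AM-9747, within a wide vehicle range of 13.7, 30.3, 15.4 and 21.9 CPM (log2 fold change -0.36 ± 0.30; adjusted p = 0.462). No stretch of 50 bases of the CLK1 or CLK4 principal transcript occurs in a transcript of any other annotated gene. Reads of 50 bases or more from these transcripts can thus be told apart between the paralogs. Their other transcripts were not searched in this way, and CLK4 shares 161 exonic bases with RN7SKP70 on the same strand. Because the counts are per gene, a rise in spliced mRNA and one in transcripts that keep an intron cannot be told apart for CLK1 or CLK4.

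CLK3, a further nuclear CLK on chromosome 15 (74598500 to 74645414, plus strand), rose less. It had 72.9, 78.5, 86.2 and 93.3 CPM in treated BXPC3 cells and 54.5, 52.1, 50.6 and 64.4 CPM in vehicle cells. All treated values exceeded all vehicle values, with a log2 fold change of 0.61 ± 0.14 (1.53-fold; adjusted p = 0.00936). Its log2 fold change was -0.095 ± 0.13 in MIAPACA2 (adjusted p = 0.677) and 0.086 ± 0.22 in PSN1 (adjusted p = 0.836), and the groups overlapped in both. CLK3 shares 701 exonic bases with EDC3 on the opposite strand; the library kit keeps strand, but whether the counting used it is not given in the sources used here.

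CLK2, on chromosome 1 (155262868 to 155278491, minus strand), did not pass in any line. It had 33.5, 43.9, 52.9 and 60.7 CPM in treated and 38.6, 41.6, 43.5 and 52.4 CPM in vehicle BXPC3 cells (log2 fold change 0.15 ± 0.20; adjusted p = 0.610). The log2 fold change was -0.021 ± 0.21 in MIAPACA2 (adjusted p = 0.958) and -0.24 ± 0.28 in PSN1 (adjusted p = 0.622). A pseudogene, CLK2P1, shares most of the 6.84% of 50-base stretches of the CLK2 principal transcript that are found in other genes, so a small part of its counts may be split. The share was 3.34% for CLK3, 2.05% for SRPK2, 3.18% for PRPF4B, 0.411% for DYRK1A and 0 for the other 4.

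**Figure D2:**
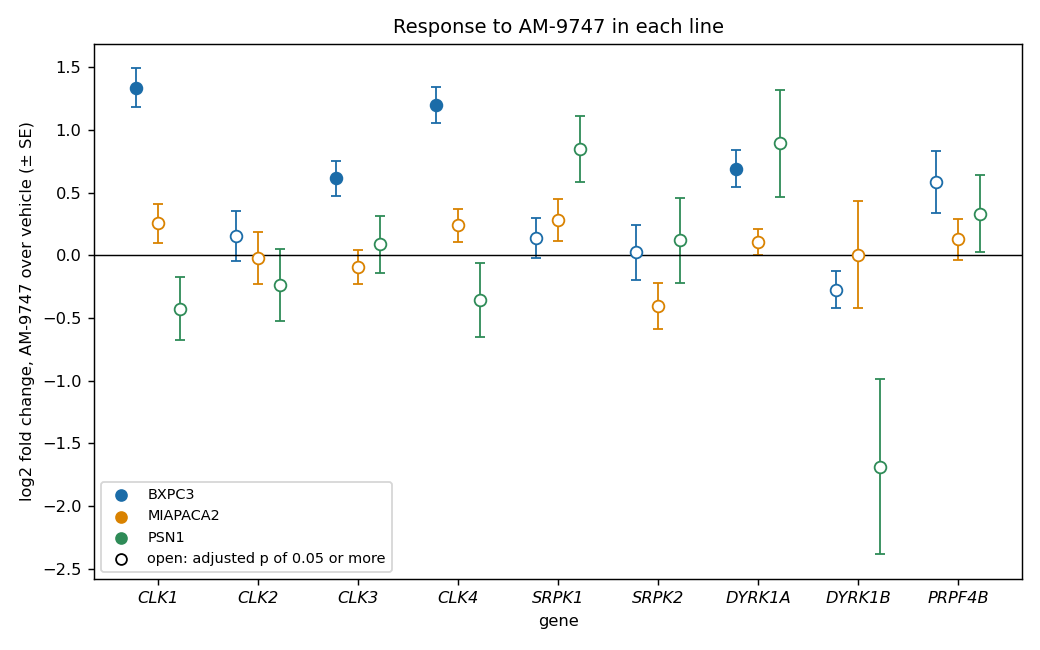
Log2 fold change of AM-9747 over vehicle (vertical axis) for each kinase in BXPC3, MIAPACA2 and PSN1, with bars for the standard error. The filled points, which passed an adjusted p of 0.05, are CLK1, CLK3, CLK4 and DYRK1A in BXPC3; the widest bar is that of DYRK1B in PSN1 (0.70).

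SRPK1, on chromosome 6 (35832966 to 35921342, minus strand), gave its largest difference in PSN1. It had 97.0, 93.2, 109 and 118 CPM with AM-9747 and 74.0, 59.4, 30.7 and 63.5 CPM with vehicle in that line. The groups did not overlap, which was so for 21.3% of all genes tested in PSN1, and the means were 104 ± 11.4 CPM with AM-9747 and 56.9 ± 18.5 CPM with vehicle (SD, n = 4 each). The log2 fold change of 0.85 ± 0.27 missed the threshold (adjusted p = 0.0656). It passed without PSN1 vehicle replicate 1 (0.97 ± 0.27; adjusted p = 0.0299). Among the other settings tried it passed in 6 of 11. The lowest adjusted p of these (0.00508) came from a joint edgeR fit of all 24 libraries, whose PSN1 calls are not relied on (see DYRK1A). In BXPC3, SRPK1 had 204, 160, 168 and 165 CPM in treated and 186, 181, 177 and 108 CPM in vehicle cells (log2 fold change 0.14 ± 0.16; adjusted p = 0.561), and in MIAPACA2 it had 143, 137, 146 and 128 CPM with AM-9747 and 95.1, 163, 126 and 87.6 CPM with vehicle (0.28 ± 0.17; adjusted p = 0.297).

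SRPK2, its relative on chromosome 7 (105110704 to 105399308, minus strand), was near 0 in BXPC3, with a log2 fold change of 0.023 ± 0.22 (adjusted p = 0.950) between 49.3 ± 13.0 CPM in treated and 49.9 ± 12.8 CPM in vehicle cells (SD, n = 4 each). MIAPACA2 had 47.9, 37.5, 52.6 and 44.2 CPM with AM-9747 and 47.4, 86.7, 67.9 and 48.1 CPM with vehicle. The upper pair of vehicle libraries stood above all treated ones and the lower pair lay among them (log2 fold change -0.41 ± 0.18; adjusted p = 0.172). In PSN1 the log2 fold change was 0.12 ± 0.34 (adjusted p = 0.849).

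DYRK1A, on chromosome 21 (37365573 to 37526358, plus strand), has a principal transcript of 17562 bases, the longest of the 9. It had 97.2, 88.7, 87.3 and 77.0 CPM in AM-9747-treated BXPC3 cells and 60.0, 63.2, 60.9 and 39.3 CPM in vehicle cells. The groups did not overlap, and the log2 fold change was 0.69 ± 0.15 (1.61-fold; adjusted p = 0.00677). Vehicle replicate 4, the library lowest in long transcripts, was also the lowest for DYRK1A; without it the gene still passed, as it did without any other single BXPC3 library (adjusted p up to 0.0228). In a joint fit of all 24 libraries, which gives every line the same spread per gene, it no longer passed (adjusted p = 0.157). That fit called 10.5% of 22883 genes for BXPC3 and 5.03% for MIAPACA2; for PSN1, the line of widest spread, it called 25.2%, SRPK1, DYRK1A and DYRK1B among them. On simulated data, in which few genes were changed, 80.1% of the 236 PSN1 calls of that fit were false. That share need not hold in these data, but these 3 calls are not relied on.

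In PSN1, DYRK1A had 61.9, 52.4, 61.2 and 54.8 CPM with AM-9747 and 49.4, 31.1, 7.41 and 33.9 CPM with vehicle. All treated libraries were above all vehicle libraries, but the vehicle libraries were widely spread and the log2 fold change of 0.89 ± 0.42 did not pass (adjusted p = 0.198). The value of 7.41 CPM came from vehicle replicate 3, the library of lowest depth, whose part in the difference was not tested beyond leaving it out. The groups in MIAPACA2 were 59.9 ± 3.54 CPM with AM-9747 and 57.3 ± 2.83 CPM with vehicle (SD, n = 4 each; log2 fold change 0.11 ± 0.10; adjusted p = 0.535).

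DYRK1B, on chromosome 19 (39825350 to 39834201, minus strand), a paralog of DYRK1A known as a kinase of quiescent cells, was the least abundant member by CPM in each group except BXPC3 vehicle, where CLK4 was lower. In BXPC3 it had 11.1, 10.7, 9.67 and 7.91 CPM with AM-9747 and 11.6, 13.1, 11.1 and 12.9 CPM with vehicle, which overlapped at 1 library of each group (log2 fold change -0.27 ± 0.15; adjusted p = 0.199). MIAPACA2 held 1.30 ± 0.510 CPM in treated and 1.33 ± 0.459 CPM in vehicle cells (SD, n = 4 each). In PSN1 it had 0.638, 0.880, 1.53 and 1.23 CPM with AM-9747 and 0.903, 2.90, 7.29 and 2.36 CPM with vehicle, resting on mean counts per library of 34.75 with AM-9747 and 72 with vehicle. The log2 fold change there was -1.69 ± 0.70 (adjusted p = 0.143), and it passed without vehicle replicate 1 (-2.00 ± 0.64; adjusted p = 0.0462). Without vehicle replicate 3, the highest of them, it shrank to -0.95 ± 0.60 (adjusted p = 0.337), and with the mitochondrial share as covariate it was -0.60 ± 0.80 (adjusted p = 0.743).

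PRPF4B, on chromosome 6 (4021267 to 4064983, plus strand), had 124, 101, 91.3 and 69.3 CPM in treated and 73.8, 79.8, 76.9 and 35.0 CPM in vehicle BXPC3 cells. Each group had 1 library below its others, replicate 4 in both cases, and these were also the libraries with the lowest long-transcript index of their groups (-0.48 with AM-9747 and -0.86 with vehicle). The log2 fold change of 0.58 ± 0.25 did not pass (adjusted p = 0.105), but it did in 4 of the 11 other settings: with that index as a covariate, which was added after the data had been seen (0.62 ± 0.069; adjusted p = 1.65e-05), with the mitochondrial share as one (0.61 ± 0.15; adjusted p = 0.00925), with the replicate block (0.62 ± 0.13; adjusted p = 0.00493) and by limma voom, at a smaller change (0.38 ± 0.13; adjusted p = 0.0255). It was 0.13 ± 0.16 in MIAPACA2 (adjusted p = 0.645) and 0.33 ± 0.31 in PSN1 (adjusted p = 0.516), where the groups overlapped.

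The difference in response between the lines, tested in 1 fit of the 24 libraries, passed for CLK1 (adjusted p = 0.000615) and CLK4 (adjusted p = 0.00367) and for none of the other 7 kinases; 12.1% of 22883 genes passed this test. With a variance per line in limma voom the values were 0.000439 for CLK1 and 0.00151 for CLK4. On simulated data both tests made more false calls than their threshold allows, so these adjusted p-values may be too small. There, with few genes changed, 37.5% of the 32 edgeR calls and of the 48 voom calls were false. That share need not hold in these data. The CLK1 response in BXPC3 exceeded that in PSN1 by 1.71 ± 0.27 on the log2 scale (adjusted p = 0.000423; 8.33% of genes passed for this pair) and that in MIAPACA2 by 1.10 ± 0.27 (adjusted p = 0.0264; 2.07% passed). For CLK4 the excess in BXPC3 was 1.49 ± 0.28 over PSN1 (adjusted p = 0.00245) and 0.98 ± 0.28 over MIAPACA2, which did not pass (adjusted p = 0.0752). Between MIAPACA2 and PSN1 0 members passed by edgeR (2 at an unadjusted p below 0.05, CLK1 and DYRK1B), where 10.4% of genes did; no other tool was run for single pairs. CLK3 missed the test over the 3 lines (adjusted p = 0.0875), and passed without BXPC3 vehicle replicate 4 (adjusted p = 0.0459); DYRK1B missed it (adjusted p = 0.146) and passed without PSN1 vehicle replicate 1 (adjusted p = 0.0227).

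Vehicle cells differed between lines for 7 of the 9 kinases, where 73.3% of 20067 genes did, so most genes of any kind differ here. The fit of the vehicle libraries gave every line the same spread per gene and was not tested on simulated data. CLK1 averaged 23.7 ± 2.69 CPM in BXPC3, 34.4 ± 3.72 CPM in MIAPACA2 and 74.9 ± 17.2 CPM in PSN1 (SD, n = 4 each), and all 3 pairs passed; among all genes 48.4% passed between BXPC3 and MIAPACA2, 60.7% between BXPC3 and PSN1 and 50.9% between MIAPACA2 and PSN1. CLK2 kept that order with 44.0 ± 5.95, 74.1 ± 20.1 and 159 ± 42.3 CPM, and all its pairs passed too. The mitochondrial share was 6.60 to 8.98% in BXPC3 vehicle libraries, 6.58 to 20.5% in MIAPACA2 and 17.4 to 43.8% in PSN1 ones. The part of this share in the CLK1 and CLK2 differences between vehicle cells was not tested. CLK4 stood at 8.17 ± 0.866 CPM in BXPC3, below 13.7 ± 1.11 CPM in MIAPACA2 and 20.3 ± 7.53 CPM in PSN1, and MIAPACA2 and PSN1 did not differ beyond their spread (adjusted p = 0.0753). With AM-9747 the levels of CLK1 were 58.5 ± 8.67, 40.0 ± 6.32 and 57.3 ± 11.2 CPM in the same order of lines, and those of CLK4 were 18.3 ± 1.59, 15.7 ± 0.902 and 16.3 ± 1.02 CPM (SD, n = 4 each), so BXPC3 was no longer the lowest of the 3; the treated lines were not tested against each other.

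The SRPKs had another order. SRPK1 averaged 163 ± 36.9 CPM in BXPC3, 118 ± 34.5 CPM in MIAPACA2 and 56.9 ± 18.5 CPM in PSN1, and PSN1 was below both other lines while BXPC3 and MIAPACA2 did not differ (adjusted p = 0.241). SRPK2 was lowest in PSN1 as well, at 24.1 ± 9.04 CPM, below 49.9 ± 12.8 CPM in BXPC3 and 62.5 ± 18.7 CPM in MIAPACA2, which did not differ from each other (adjusted p = 0.342). DYRK1B was at 12.2 ± 1.00 CPM in BXPC3, 1.33 ± 0.459 CPM in MIAPACA2 and 3.36 ± 2.75 CPM in PSN1; the log2 difference was 3.13 ± 0.54 between BXPC3 and MIAPACA2 (adjusted p = 0.000306) and 1.81 ± 0.51 between BXPC3 and PSN1 (adjusted p = 0.00785). PRPF4B passed over the 3 lines (adjusted p = 0.0330), at 66.4 ± 21.1 CPM for BXPC3, 74.5 ± 13.7 CPM for MIAPACA2 and 39.1 ± 12.4 CPM for PSN1. That call was lost without MIAPACA2 vehicle replicate 2 (adjusted p = 0.0632) or 3 (0.0600) and without PSN1 vehicle replicate 2 (0.0720) or 3 (0.0595). CLK3 (adjusted p = 0.299) and DYRK1A (adjusted p = 0.123) did not pass; DYRK1A did without PSN1 vehicle replicate 1 (0.0337) or 3 (0.0499).

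Per length of the principal transcript, the paralogs could be set beside each other. CLK1 was above CLK4 in every group, by level 31.0 ± 4.59 against 7.13 ± 0.620 CPM per kilobase in AM-9747-treated BXPC3 cells and 12.6 ± 1.42 against 3.18 ± 0.337 CPM per kilobase in vehicle BXPC3 cells (SD, n = 4 each). SRPK1 was likewise above SRPK2 in every group, at 37.9 ± 4.34 and 13.3 ± 3.51 CPM per kilobase in treated BXPC3 cells. CLK2 was the highest of the 9 in both PSN1 groups, with 71.7 ± 19.6 CPM per kilobase under AM-9747 and 82.2 ± 21.8 CPM per kilobase under vehicle. These orders were the same when the length of all annotated exons was used.

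**Figure D3:**
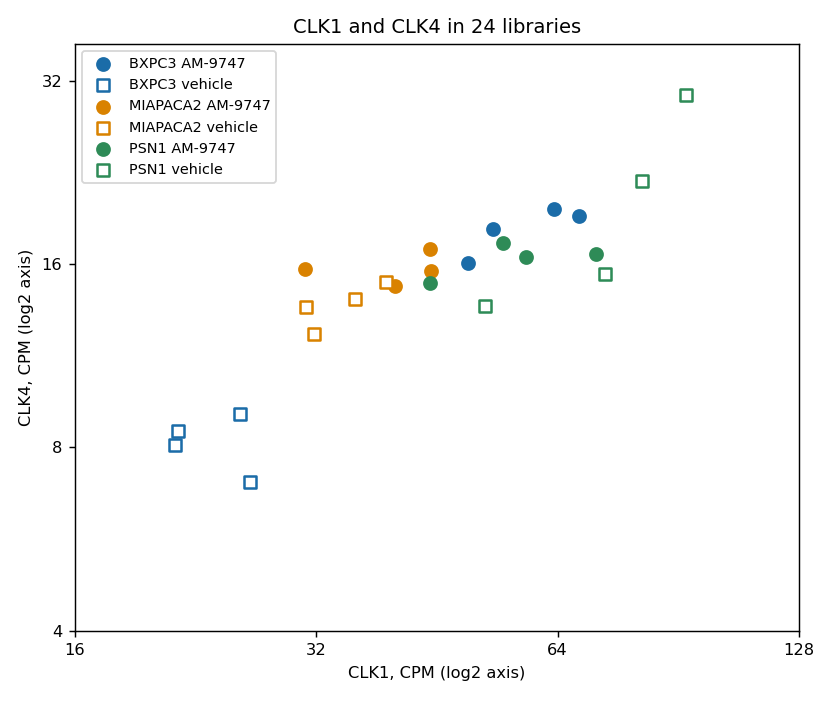
CLK4 (vertical axis) against CLK1 (horizontal axis) in CPM on log2 axes for the 24 libraries; filled circles are AM-9747 and open squares vehicle, coloured by line. The 4 BXPC3 vehicle libraries lie apart at 21.3 to 26.4 CPM of CLK1 and 7.03 to 9.07 CPM of CLK4, and the 4 treated BXPC3 libraries lie among those of PSN1.

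CLK1 and CLK4 varied together over the libraries. After the mean of each line was subtracted, the Pearson r of their log2 CPM over the 24 libraries was 0.904, a description in which the treatment and the depth of each library are shared. Among 11215 protein-coding genes with a mean of at least 5 CPM, other than the 9 kinases, those most like CLK1 by the same measure were FMNL1 (0.905), a formin, and FMC1 (0.894), a mitochondrial assembly factor. For CLK4 they were KLF2 (0.897), a transcription factor, and PRPF39 (0.866), a U1 snRNP protein. The nearest were DMPK (0.941) and PRKRIP1 (0.931) for CLK2, and TMA7 (0.843) and PTRH2 (0.843) for CLK3. SRPK1 was nearest to TASOR (0.970) and TBC1D23 (0.967), and SRPK2 to KIAA1671 (0.961) and NEK7 (0.949). DYRK1A was nearest to CBFB (0.966) and APAF1 (0.962), DYRK1B to ACAP3 (0.881) and TARBP1 (0.881), and PRPF4B to PTAR1 (0.947) and NCOA3 (0.936).

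Levels of several kinases moved with 2 properties of the libraries. The closest were CLK2 with the mitochondrial share in BXPC3 and MIAPACA2, and SRPK2 with the long-transcript index in BXPC3. The BXPC3 AM-9747 libraries with 4.34, 6.16, 8.66 and 10.2% of mitochondrially encoded counts had 33.5, 43.9, 52.9 and 60.7 CPM of CLK2. The MIAPACA2 vehicle libraries with 6.58, 10.3, 17.0 and 20.5% had 54.0, 63.2, 79.2 and 99.9 CPM. CLK2 was thus higher wherever the mitochondrial share was higher within either of these groups. CLK1 had 49.4, 53.1, 63.3 and 68.0 CPM in the same 4 treated BXPC3 libraries, the same order; with the share as covariate its log2 fold change in BXPC3 was 1.32 ± 0.094 (adjusted p = 5.31e-06). SRPK2 followed the long-transcript index in the same way: treated BXPC3 libraries at 0.54, 0.15, -0.19 and -0.48 had 64.5, 54.5, 43.3 and 34.7 CPM. BXPC3 vehicle replicate 4, at -0.86, had 31.1 CPM of SRPK2, against 54.4 to 59.4 CPM in the other 3 vehicle libraries. Over the 8 libraries of a line, both groups included, the Pearson r with the index was 0.876 in BXPC3 and 0.847 in MIAPACA2 for SRPK1, and 0.801 in BXPC3 and 0.886 in MIAPACA2 for PRPF4B. The r with the mitochondrial share was 0.762 for CLK1 in MIAPACA2. The part of either property in the levels was not tested apart from the fits that hold it as a covariate. With the mitochondrial share as covariate 3 kinases passed in MIAPACA2, where this setting called 6382 of 18090 genes of all kinds. CLK1 was higher (log2 fold change 0.27, adjusted p = 0.0398), as was SRPK1, and SRPK2 was lower. With the index as covariate SRPK1 and SRPK2 passed there, and that setting too called more genes of all kinds than the main fit.

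**Figure D4:**
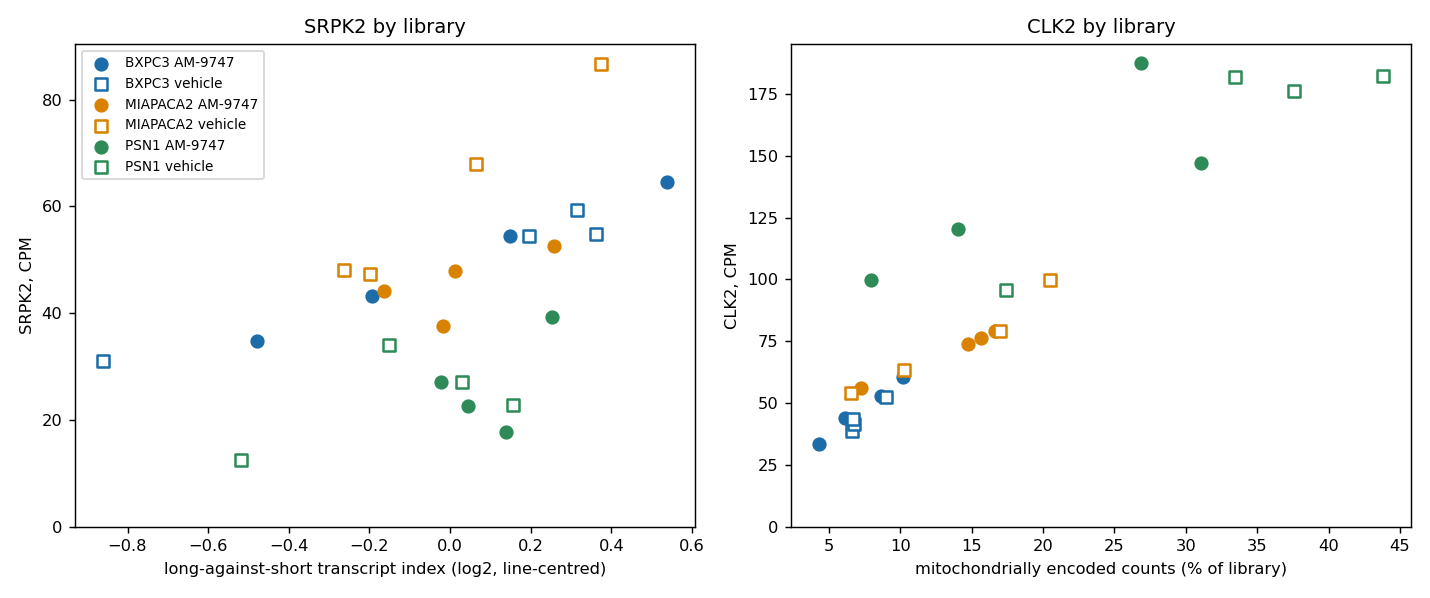
Left, SRPK2 in CPM against the index of long against short transcripts; right, CLK2 in CPM against the percentage of mitochondrially encoded counts; filled circles are AM-9747 and open squares vehicle, coloured by line. SRPK2 is lowest within BXPC3 in the vehicle library at -0.86, and CLK2 climbs along the mitochondrial share in BXPC3 and MIAPACA2.

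Among the substrates, SR proteins and the related TRA2 factors were higher in BXPC3 for 7 of 13 tested and lower for 0 (SRSF12 was not tested), with a median log2 fold change of 0.35 beside 2.99e-05 over all genes. SRSF2, which binds exonic enhancers, had 241 ± 46.6 CPM in treated and 151 ± 20.1 CPM in vehicle cells (SD, n = 4 each; 1.64-fold; adjusted p = 0.0129). SRSF11 rose 1.61-fold (adjusted p = 0.00180), a call lost in the joint fit (adjusted p = 0.119), where 3 of the list passed. In MIAPACA2 0 rose and 2 fell, namely SRSF1, the founding SR protein, at 115 ± 7.70 CPM in treated and 170 ± 11.7 CPM in vehicle cells (0.693-fold; adjusted p = 0.00968), and SRSF3 (0.754-fold; adjusted p = 0.0361). In PSN1 SRSF3 rose (1.91-fold; adjusted p = 0.0490) and SRSF5 fell (0.601-fold; adjusted p = 0.0372).

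Of 15 speckle and junction proteins rich in serine and arginine, 6 rose and 0 fell in BXPC3, with a median log2 fold change of 0.38. LUC7L, a U1 snRNP factor, had 93.4 ± 35.6 CPM with AM-9747 and 30.8 ± 9.28 CPM with vehicle (3.10-fold; adjusted p = 0.00335), and SREK1, a splicing regulator, had 84.0 ± 8.54 CPM with AM-9747 and 45.1 ± 8.56 CPM with vehicle (1.92-fold; adjusted p = 0.00148). In MIAPACA2 SREK1 rose again (2.19-fold; adjusted p = 0.0137), as did SRRM1, a coactivator in speckles, at 220 ± 31.6 CPM in treated and 120 ± 9.97 CPM in vehicle cells (adjusted p = 0.00170), while BCLAF1 fell (0.612-fold; adjusted p = 0.0353). PSN1 had BCLAF1 higher (2.00-fold; adjusted p = 0.0297) and LUC7L3 lower (0.445-fold; adjusted p = 0.0306).

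The machinery that imports and dephosphorylates SR proteins had 10 genes tested. In BXPC3 0 rose and 1 fell, PPP1R10, a regulator of protein phosphatase 1 (0.688-fold; adjusted p = 0.00561). In MIAPACA2 3 fell, among them the importin KPNB1 at 270 ± 27.2 CPM with AM-9747 and 419 ± 83.7 CPM with vehicle (adjusted p = 0.0198) and PPP2R1A, the scaffold of protein phosphatase 2A (0.680-fold; adjusted p = 0.0331). In PSN1 0 passed by edgeR (4 at an unadjusted p below 0.05), 2 by DESeq2 and 3 by limma voom. The other DYRK, HIPK and SRPK kinases gave 0 calls by edgeR in each line, of 8 genes tested in BXPC3 and MIAPACA2 and 7 in PSN1. At an unadjusted p below 0.05 there were 0 in BXPC3, 2 in MIAPACA2 and 1 in PSN1; DESeq2 called 1, in MIAPACA2, and limma voom 2, in BXPC3.

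Of 14 other kinases of transcription and splicing, 4 rose and 1 fell in BXPC3. Among the 4 were CDK11A (adjusted p = 0.0152) and CDK11B (adjusted p = 0.00798), near-identical neighbours whose counts are uncertain. CDK13, which phosphorylates RNA polymerase II, rose 1.80-fold (adjusted p = 0.00105) and CDK7, the kinase of TFIIH, 1.70-fold (adjusted p = 0.00352). CDK9, the kinase of the elongation factor P-TEFb, fell to 35.0 ± 4.63 CPM in treated cells, against 80.3 ± 11.7 CPM in vehicle cells (0.446-fold; adjusted p = 0.000683). It fell in MIAPACA2 as well, to 36.0 ± 4.91 CPM with AM-9747, against 57.4 ± 4.20 CPM with vehicle (0.643-fold; adjusted p = 0.0135). CDK11B rose in MIAPACA2 (1.32-fold; adjusted p = 0.0392) and in PSN1 (2.93-fold; adjusted p = 0.0106), but it has a near-identical neighbour, CDK11A, and its counts are uncertain.

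Partners of DYRK1A and PRPF4B were the last groups. In the DREAM complex list, 1 of 12 rose and 1 fell in BXPC3, E2F4 (1.54-fold; adjusted p = 0.00412) and RBL1 (0.631-fold; adjusted p = 0.0271), both repressor subunits. In MIAPACA2 0 passed by edgeR (4 at an unadjusted p below 0.05), 2 by DESeq2 and 4 by limma voom, and LIN37 fell in PSN1 (0.395-fold; adjusted p = 0.0474). Of 11 partners and tri-snRNP substrates of PRPF4B, 5 rose and 0 fell in BXPC3. PRPF3, a U4/U6 protein, had 89.3 ± 7.83 CPM in treated and 36.6 ± 1.71 CPM in vehicle BXPC3 cells (2.50-fold; adjusted p = 5.44e-05), and SART1 rose 1.83-fold (adjusted p = 0.00833). PRPF3 rose in MIAPACA2 by 1.33-fold (adjusted p = 0.0468). In PSN1 3 rose, among them PRPF8, the core of the spliceosome, at 242 ± 61.3 CPM with AM-9747 and 98.6 ± 25.4 CPM with vehicle (2.41-fold; adjusted p = 0.0122), and PRPF4 (2.34-fold; adjusted p = 0.0213).

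Background rates of calls for these lists were 13.2% higher and 16% lower in BXPC3. They came to 6.73% and 6.84% in MIAPACA2, and PSN1 gave 4.52% and 6.17%. An unadjusted p below 0.05 was reached by 7219 of 17638 genes in BXPC3, 5258 of 18090 in MIAPACA2 and 5150 of 18287 in PSN1. With single libraries left out, CDK11A and CDK11B were not followed singly in BXPC3, where their list gave 4 to 6 calls. Of the other named BXPC3 list calls, only that of RBL1 ended, lost in 6 of 8 cases (adjusted p up to 0.0853). In MIAPACA2 those of SRSF1, SRRM1 and CDK9 held in all 8 cases, and in PSN1 that of CDK11B did. The other named calls in MIAPACA2 and PSN1 were lost in 1 to 8 of the 8 cases.

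**Figure D5:**
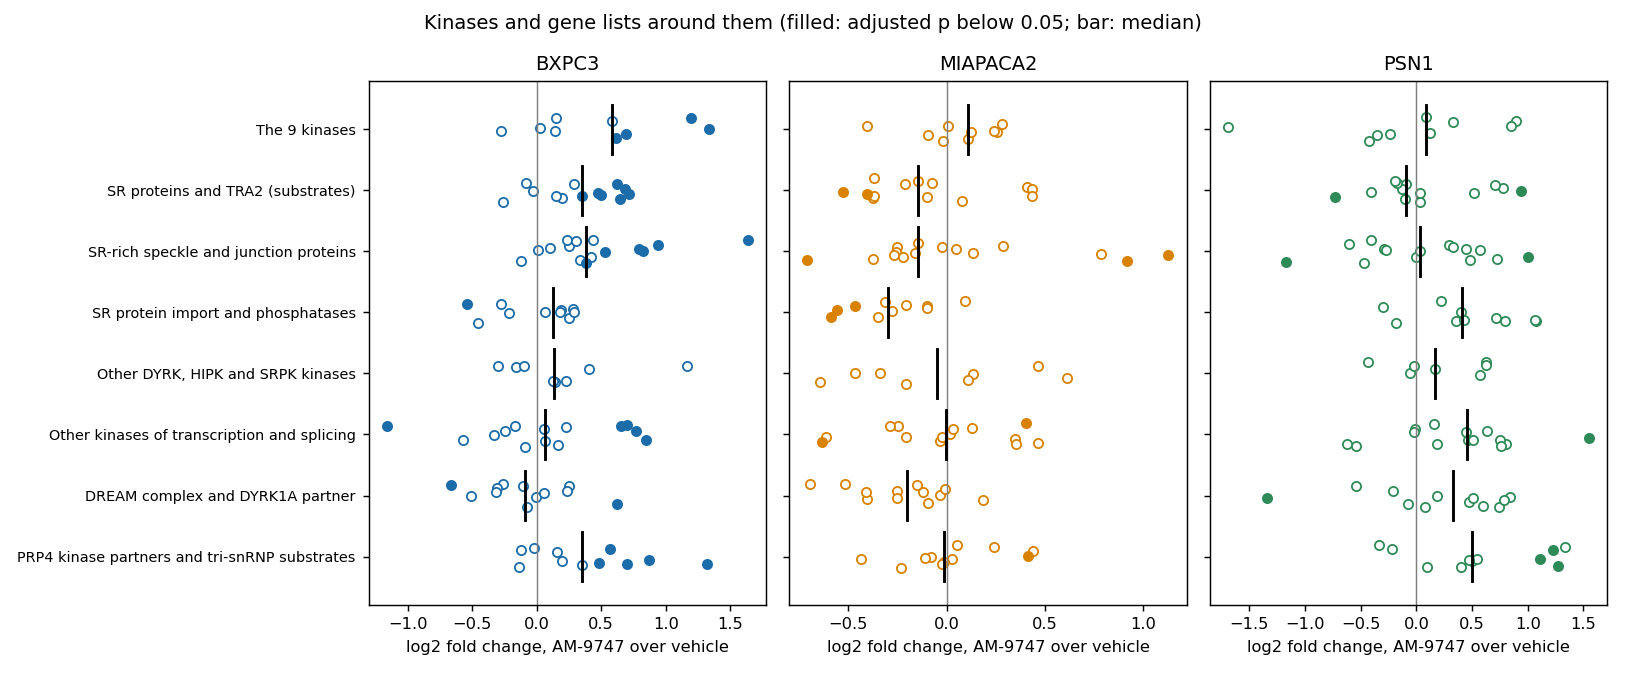
Log2 fold change of AM-9747 over vehicle (horizontal axis) for the 9 kinases and the genes of 7 related lists (rows) in each line; filled points passed an adjusted p of 0.05 and black bars are medians. In BXPC3 the medians of the kinases (0.58), SR proteins (0.35), speckle proteins (0.38) and tri-snRNP list (0.35) lie right of 0.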

How the data were processed

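The authors deposited raw read counts per gene for 24 libraries of polyadenylated RNA, prepared with a directional kit per the labels' protocols. Per the submitters' processing notes, fastp 0.19.8, HISAT2 2.2.0, R 4.0.2 and DESeq2 1.34.0 were used with GRCh38; the counter, its strand setting and the annotation were not given by these sources. Of 60366 entries, 56271 matched GENCODE 29 by identifier, which gave positions, lengths and gene types.

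Each line was fitted alone (8 libraries) with edgeR 4.0.16 in R 4.3.3: filterByExpr, TMM scaling, quasi-likelihood test, Benjamini-Hochberg over all genes, threshold 0.05. Differences between lines used 1 fit of 24 libraries, and vehicle levels 1 fit of 12. The single-line fits, the joint fit and the test of the difference between lines were tested on simulated data. The fit of vehicle levels was not. The simulated data kept the spread of each line, and few genes in them were changed. The share of false calls was above the threshold in the single-line fits, and higher in the test of the difference between lines, by edgeR and by voom alike. Most calls of the joint fit for PSN1 were false. Printed CPM used TMM over 24 libraries, and likeness log2 CPM with a prior count of 2.

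The 9 kinases and 7 lists were chosen with earlier results of these data known. Named are all 9; from each list and line up to 2 genes higher and 2 lower with the largest called change (mean of at least 5 CPM); and the 2 genes most like each kinase. Alternatives were DESeq2 1.42.0, limma 3.58.1 voom, other scalings and filters, covariates, a replicate block and leaving out each library. Same-numbered libraries of a line did not deviate together throughout (r from -0.33 to 0.56), so the numbers were not taken as pairs. No 2 libraries of a group agreed within counting noise.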

Additional observations from a re-analysis of the deposited data

Results flagged for a closer look

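Of 54 groups of 4 libraries (9 kinases in 6 groups), 4 held a library far from the other 3, where chance gives about 1 in 20. In BXPC3 vehicle cells this was replicate 4 for 3 kinases. SRPK1 stood at 108 CPM there, against 177 to 186 CPM in the other 3 libraries. DYRK1A stood at 39.3 CPM, against 60.0 to 63.2 CPM. PRPF4B stood at 35.0 CPM, against 73.8 to 79.8 CPM. The same library had the lowest index of long transcripts of all 24, and its part in these values was not tested apart from leaving it out. In PSN1 vehicle cells CLK2 stood at 95.7 CPM in replicate 1, against 176 to 182 CPM in the other 3 libraries; that library had 17.4% of mitochondrially encoded counts, and the others 33.5 to 43.8%.

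The response to AM-9747 differed between lines by its own test for CLK1 (adjusted p = 0.000615) and CLK4 (adjusted p = 0.00367), edgeR quasi-likelihood test over 24 libraries. Both were higher in all 4 treated BXPC3 libraries than in all 4 vehicle libraries of that line, and neither separated the groups in MIAPACA2 or PSN1.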

How the results depend on the processing

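The calls of CLK1, CLK3 and CLK4 in BXPC3, and those of CLK1 and CLK4 for the difference between lines, held under every setting run. With single libraries left out, 4 kinases passed in BXPC3 in every case (3707 to 6763 genes in all), 0 in MIAPACA2 (1142 to 3243) and 0 to 2 in PSN1 (530 to 4370); 2 to 3 passed for the difference (1994 to 6105) and 6 to 8 for vehicle levels (13929 to 16013).

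Counts of all genes called moved by over 1.5 times as follows. In BXPC3 (5158) the joint fit gave 2414, voom 9598, the mitochondrial covariate 8025 and the index covariate 9599. In MIAPACA2 (2456) the joint fit gave 1151, DESeq2 3708, voom 5193, the mitochondrial covariate 6382 and the index covariate 5575, and the covariates called 3 and 2 kinases. In PSN1 (1954) the joint fit gave 5761, DESeq2 3652, voom 5485 and the index covariate 827. There the joint fit called 3 kinases (SRPK1, DYRK1A and DYRK1B), voom 2 (SRPK1 and DYRK1A), and DESeq2, no scaling and the filter at 5 CPM 1 (SRPK1). For the difference between lines (2765) DESeq2 gave 4871, and voom with a variance per line called 4 kinases (CLK1, CLK3, CLK4 and DYRK1A). The cause was not tested.

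The replicate block gave 3355 genes and 1 kinase (SRPK1) in PSN1 and 4328 genes for the difference between lines, and PRPF4B passed in BXPC3 (adjusted p = 0.0049). The libraries share only a number, and not every one was nearest to its own.

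Sign changes touched only log2 fold changes that passed in neither fit. In BXPC3 voom gave SRPK1 -0.024 and SRPK2 -0.18, and no filter gave SRPK2 -0.030. For CLK2 in MIAPACA2 voom gave 0.13, no scaling 0.13, the 5 CPM filter 0.045, the mitochondrial covariate 0.013, the block 0.011 and the index covariate 0.053; no scaling gave CLK3 0.053. For DYRK1B there the joint fit gave -0.020, voom -0.059, no filter -0.014, the mitochondrial covariate -0.019 and the block -0.021. In PSN1 voom gave SRPK2 -0.076; no scaling gave CLK2 0.11 and CLK4 0.020; the 5 CPM filter gave CLK3 -0.0081; the mitochondrial covariate gave CLK2 0.27, CLK4 0.021, SRPK2 -0.32 and PRPF4B -0.20; and the index covariate gave SRPK2 -0.20. With libraries left out the range was -0.0051 to 0.19 for SRPK1 and -0.14 to 0.15 for SRPK2 in BXPC3, -0.17 to 0.16 for CLK2 and -0.20 to 0.22 for DYRK1B in MIAPACA2, and -0.0022 to 0.21 for CLK3 and -0.12 to 0.31 for SRPK2 in PSN1. DYRK1B averaged 34.75 to 72 counts per library in the MIAPACA2 and PSN1 groups, so counting error weighs most on it.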
